A study of Mus musculus with 7 samples.

Results

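The guanylate-binding protein (GBP) family is described here through 8 of its mouse genes, Gbp2, Gbp3, Gbp4, Gbp5, Gbp6, Gbp7, Gbp8 and Gbp9, among the 55364 genes of the count table. They were chosen by name from a table whose difference between Cre and Control was already known, including the low counts of Gbp8 and Gbp9. That difference is therefore given for the members as a description, without a test. Of the 8, 4 lie on the plus strand of chromosome 3 (Gbp2, ENSMUSG00000028270; Gbp3, ENSMUSG00000028268; Gbp5, ENSMUSG00000105504; Gbp7, ENSMUSG00000040253). The other 4 lie on the minus strand of chromosome 5 (Gbp4, ENSMUSG00000079363; Gbp6, ENSMUSG00000104713; Gbp8, ENSMUSG00000034438; Gbp9, ENSMUSG00000029298). All 8 passed the filter on low counts, while the 3 other family genes in the table, Gbp2b, Gbp10 and Gbp11, did not.

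RNA came from CD4 T cells of lung tumours grown orthotopically in C57BL/6 mice more than 8 weeks old, taken by flow cytometry with a gate on CD45, CD3 and CD4. Control mice (I-AbF/F, 5 libraries) and Cre mice (I-AbF/FCol1a2-cre, 2 libraries) both carried the loxP-flanked MHC class II allele I-Ab, and both received tamoxifen. Only the Cre group carried a Cre recombinase, under the promoter of the fibroblast collagen gene Col1a2, which is active in fibroblasts; deletion itself was not measured here. The comparison asks how the T cells differ when fibroblasts lose antigen presentation.

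GBPs are large GTPases of the dynamin superfamily. Interferon-gamma induces them through its receptor, the kinases JAK1 and JAK2 and transcription factors that include IRF1. They are best known in macrophages, where they coat vacuoles that hold bacteria or parasites, break them and feed inflammasomes, and T cells also express them after interferon exposure.

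The members share more than a name. Among the RefSeq promoter windows of GRCm38.p6, 4 of the 8 members had an entry, all in the chromosome 3 cluster, with 5 windows in all because Gbp3 has 2 start sites. The sequences are shown because each of these 4 genes held at least 1 interferon-stimulated response element (ISRE), searched as GAAANNGAAA on both strands from 250 bases before to 50 bases after the start. Such a match stood in 3.43% of all 32817 promoter windows. In the lines that follow the capitals mark the match, which in each case lies on the strand opposite to the gene.
Gbp2 (chr3:142620594-142620623): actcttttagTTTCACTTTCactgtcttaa
Gbp3 (chr3:142559989-142560018): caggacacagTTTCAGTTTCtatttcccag
Gbp5 (chr3:142496759-142496788): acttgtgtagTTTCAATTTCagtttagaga
Gbp7 (chr3:142530273-142530302): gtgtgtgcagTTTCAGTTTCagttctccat

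The Gbp3 window held a second match that overlaps the one shown, and the window of its other start site held none. The element began 59 bases before the start in Gbp2, 45 in Gbp3, 53 in Gbp7 and 165 in Gbp5. A gamma-activated sequence, searched as TTCNNNGAA on both strands, was matched in Gbp5 and Gbp7, with 2 matches each, against 8.29% of all windows. The pair in Gbp7 lies close to its ISRE, and 1 of those in Gbp5 lies close to the start. The match nearest the start is shown for each gene, again in capitals. A match describes these letters only and does not show binding.
Gbp5 (chr3:142496872-142496900): tggccgttatTTCTCAGAAccaagcacag
Gbp7 (chr3:142530239-142530267): aagcagaagcTTCTCAGAAagtcagcaca

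Close copies within the family bear on what a count can mean. In a global alignment of the longest annotated coding sequences, pairs of members on the same chromosome were 64.3% to 92.8% identical and pairs on different chromosomes 63.9% to 75.7%. The highest identity between members was that of Gbp4 and Gbp8. Reads were counted in 3′ regions. No window of 50 bases in the counted 3′ sequence of Gbp2 or Gbp3 recurred in a transcript of another gene, and 2.03% to 2.53% did for Gbp4, Gbp5, Gbp8 and Gbp9. With windows of 25 bases the shares were 12.0% for Gbp4, 4.45% for Gbp5, 15.5% for Gbp8 and 10.8% for Gbp9, and 0 for Gbp2 and Gbp3; the read length is not given in the sources used here. Gbp6 stood apart, since 88.4% of its windows recurred elsewhere, mainly in Gm43302 and in Gbp10, whose coding sequence is 98.4% identical to that of Gbp6. Counts of Gbp6 may therefore be split with these 2 loci, and its values are uncertain. For Gbp7, 16.7% of windows recurred, in a gene model (Gm43802) that lies inside its counted region and had 0 counts in every library.

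Total counts ran from 1484655 to 1724346 in Control and were 1929899 and 1449739 in Cre replicates 1 and 2, so that 3 counts, the limit that a count of 0 allows, equal 1.55 and 2.07 CPM (counts scaled to a library total of 1000000) in Cre. These limits, like the intervals given later, reflect counting error only, and molecular identifiers are not named in the labels. The Cre libraries had no count for 25.01% and 33.6% of the tested genes, against 1.14% to 16.1% in Control. Cd4 had 330 to 738 counts in Control versus 731 and 567 in Cre, and the 15 T cell markers together gave 7090 to 9549 CPM in Control versus 8826 and 8393 CPM in Cre. Cd3e, a marker of the sort, had 51 to 405 counts in Control and 116 in Cre replicate 1 but 3 in Cre replicate 2. Col1a2 had 40 to 336 counts in Control versus 7 and 2 in Cre. H2-Ab1, the gene carrying the loxP sites, had 76 to 183 counts in Control versus 87 and 112 in Cre; in sorted T cells it does not check a deletion in fibroblasts.

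Over the family, the 8 members together held 734, 727, 962, 598 and 915 CPM in Control replicates 1 to 5 and 643 and 360 CPM in Cre replicates 1 and 2. Cre replicate 1 lay inside the Control range, and Cre replicate 2 lay below it. The mean was 787 ± 149 CPM in Control (SD, n = 5) and 501 ± 200 CPM in Cre (n = 2). In bulk RNA of sorted cells, fewer cells that express a gene and less RNA per cell cannot be told apart.

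Levels of different members were compared in Control only, as CPM per kilobase of the main counted region of each gene, which held 97.9% to 100% of its counts. Gbp5 had the highest mean on this scale, 93.7 ± 55.9 CPM per kilobase (SD, n = 5), followed by Gbp4 at 66.5 ± 30.5, Gbp7 at 55.1 ± 31.5, Gbp2 at 52.4 ± 33.3 and Gbp3 at 51.7 ± 50.6. Gbp8 at 36.5 ± 37.3, Gbp6 at 24.3 ± 9.57 and Gbp9 at 15.8 ± 15.5 CPM per kilobase came last. The ranges overlapped in each of the 7 neighbouring pairs of this order. Such overlap ignores that both genes were measured in the same libraries, so it does not show whether neighbours differ. Library by library, the gene with the higher mean exceeded the next in 2 to 4 of the 5 libraries. An exact two-sided sign-flip test over 5 libraries cannot go below p = 0.0625 and so could separate no pair. The order also moved with the libraries used: without Control replicate 1 Gbp4 stood first, and in none of the repeats that left out a library did Gbp9 leave the last place. Since libraries were made from 3′ ends, counts need not grow with the length of the region, so this scale can favour genes with short regions.

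**Figure D1:**
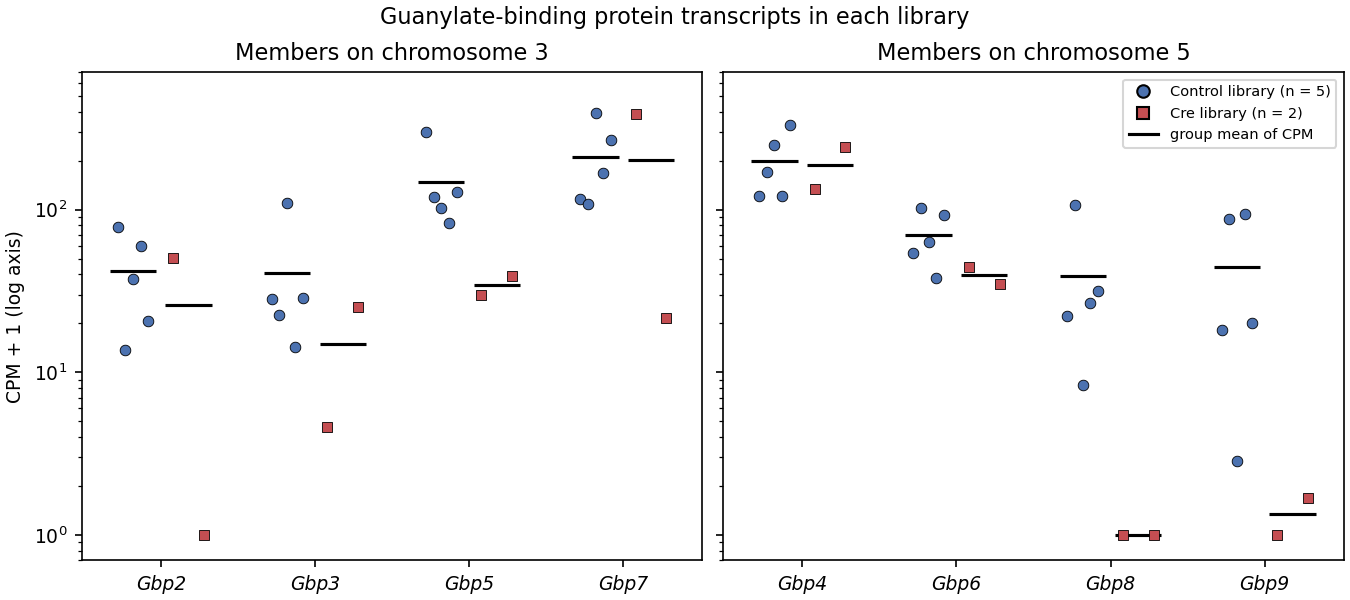
CPM plus 1 on a log axis for each of the 8 members, with 1 point per library (circles Control, squares Cre) and a bar at the mean of the group's CPM plus 1. Both Cre squares lie below every Control circle for Gbp5, Gbp8 and Gbp9, while for Gbp4 they lie among the circles and for Gbp7 one is near the highest circle and the other below the lowest.

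Gbp8 and Gbp9 were the members with the fewest counts in Cre. Both belong to the chromosome 5 cluster and are among the less studied GBPs. Gbp8 had 36, 158, 12, 44 and 50 counts in Control replicates 1 to 5 and 0 in both Cre libraries. Every Control library thus exceeded both Cre libraries, and within Control replicate 2 stood far above the others. The Control mean of 38.3 ± 39.1 CPM was 43.1-fold above the limit of 0.888 CPM that 0 counts over both Cre libraries allow, or 23.9-fold without Control replicate 2. This limit pools the 2 Cre libraries and leaves out variation between mice, so it does not bound the difference between the groups. The lowest Control library, replicate 3, had 7.38 CPM. Gbp9 had 29, 129, 3, 160 and 31 counts in Control versus 0 and 1 in Cre. The lowest Control library, replicate 3 with 3 counts, stood only 2 counts above the higher Cre library, so the groups were separated narrowly. The Control mean of Gbp9 was 43.6 ± 42.8 CPM, 147 times the pooled Cre level, with a counting interval (95%) of 26.4 to 5814 that rests on a single count. Within Control the high libraries were replicate 2 for both genes and replicate 4 for Gbp9 only. All counts of Gbp8 fell in 1 region of 1048 bases (chromosome 5, 105013901 to 105014948, minus strand), of which 796 bases lie in the 3′ UTR, and all counts of Gbp9 in 1 region of 2755 bases (105077381 to 105080135), of which 2428 are 3′ UTR. On the minus strand the annotated spans of both genes begin near the start of Gbp4, but no counted region of another gene overlapped these 2 on the same strand.

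Gbp5, which promotes assembly of the NLRP3 inflammasome and carries a lipid anchor, was the chromosome 3 member with the clearest separation. It had 507, 177, 166, 141 and 207 counts in Control versus 56 and 55 in Cre. Both Cre libraries lay below every Control library, and Control replicate 1 lay far above the rest of its group. The means were 146 ± 88.1 CPM in Control versus 33.5 ± 6.31 CPM in Cre, a fitted log2 difference of −2.15 ± 0.77 (SE, edgeR), or −1.63 without Control replicate 1. Nearly all counts (99.6%) fell in 1 region at chromosome 3, 142521040 to 142522593, where 1185 of 1554 bases are 3′ UTR.

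Gbp2, a prenylated member that acts on parasite vacuoles and in the AIM2 inflammasome pathway, had 131, 19, 59, 102 and 32 counts in Control versus 96 and 0 in Cre. The Cre libraries disagreed: replicate 1 lay inside the Control range and replicate 2 had no count. Its fitted log2 difference of −0.72 ± 1.66 became −9.07 without Cre replicate 1 and 0.29 without Cre replicate 2. In the fit without Cre replicate 1 the median of all tested genes was −2.40. There Gbp2 had 0 counts in Cre, so −9.07 depends on the small count that the fit adds and is no bound. Gbp7, linked to the delivery of oxidase components to bacterial vacuoles, had 195, 160, 640, 290 and 437 counts in Control versus 741 and 30 in Cre. In CPM its Cre replicate 1 (384) lay inside the Control range of 108 to 394, and its Cre replicate 2 (20.7) lay below. The fitted log2 difference of −0.01 ± 0.84 became −3.31 without Cre replicate 1 and 0.93 without Cre replicate 2, so that it describes neither library. The main counted regions cover 3′ UTR sequence and 249 bases past the annotated gene end, at chromosome 3, 142637494 to 142638257 for Gbp2, 142572693 to 142573458 for Gbp3 and 142546575 to 142550398 for Gbp7 (mm10). Gbp3, the remaining member of this cluster, showed the opposite order, with Control counts of 46, 32, 176, 23 and 45, while Cre replicates 1 and 2 had 7 and 35. Its Control values were spread by replicate 3, and the fitted log2 difference was −1.51 ± 1.52, or −0.67 without that library. Leaving out Cre replicates 1 and 2 in turn gave −0.69 and −3.36.

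In the chromosome 5 cluster, Gbp4 had 204, 253, 407, 208 and 538 counts in Control versus 256 and 352 in Cre. Both Cre libraries lay inside the Control range of 121 to 331 CPM, and the means were 199 ± 90.8 and 188 ± 77.9 CPM. The fitted log2 difference was −0.06 ± 0.53, and it ran from −0.51 to 0.32 over the settings. Gbp6, an antibacterial GBP in macrophages, had 89, 151, 101, 64 and 149 counts in Control versus 84 and 49 in Cre. Its mean was 69.1 ± 26.9 CPM in Control versus 38.7 ± 6.88 CPM in Cre, with Control replicate 4 (37.1 CPM) below Cre replicate 1 (43.5 CPM). The counted 3′ regions lie at chromosome 5, 105115518 to 105118499 for Gbp4 and 105270453 to 105273287 for Gbp6. Summed with its near-identical loci Gbp10 and Gm43302, a step chosen after the values were seen, the means were 80.7 ± 37.5 and 43.2 ± 12.3 CPM.

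**Figure D2:**
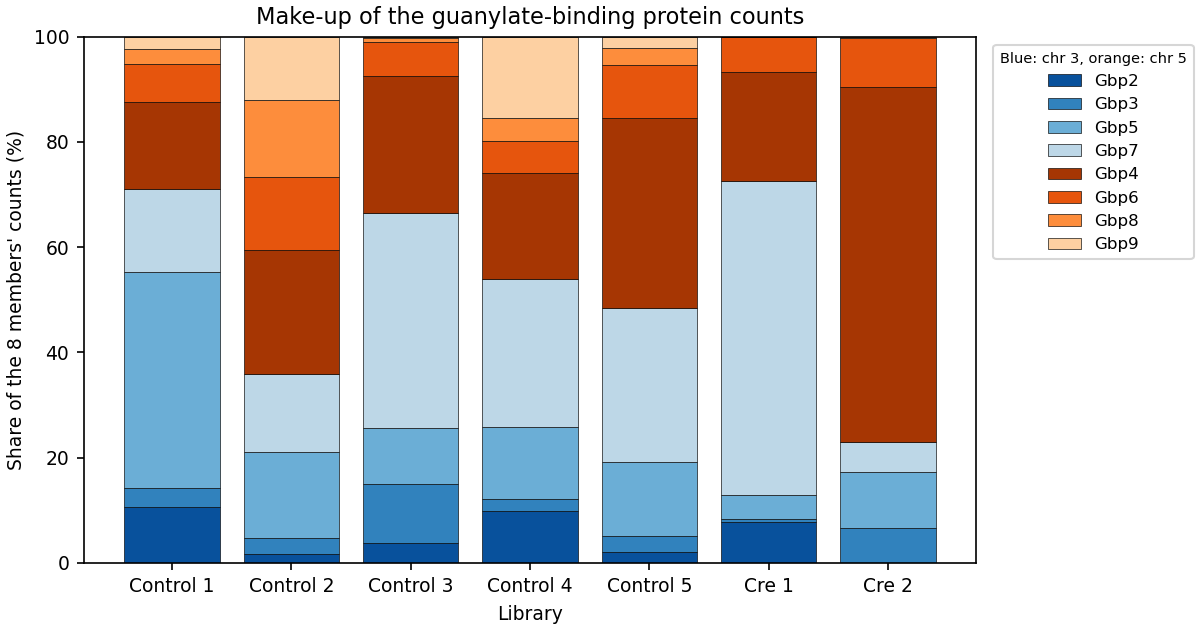
Share of each member in the summed counts of the 8 members, in percent, with 1 stacked bar per library (blue, chromosome 3; orange, chromosome 5). Gbp7 fills 59.8% of the bar of Cre replicate 1 and Gbp4 67.4% of that of Cre replicate 2, and Gbp8 and Gbp9 are nearly absent from both.

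Shares within the family do not depend on the scaling of the libraries. The chromosome 3 members held 36.0% to 71.1% of the family's counts in Control and 72.6% and 23.0% in the 2 Cre libraries, on either side of the Control range. In Cre replicate 1 Gbp7 alone held 59.8% (Wilson 95% interval 57.0% to 62.5%), against 14.8% to 40.9% in Control, and in Cre replicate 2 it held 5.75% (4.06% to 8.08%). Gbp4 held 67.4% in Cre replicate 2 (63.3% to 71.3%), against 16.5% to 36.1% in Control and 20.6% (18.5% to 23.0%) in Cre replicate 1. Gbp8 and Gbp9 together had 0 of 1240 and 1 of 522 family counts in the 2 Cre libraries. Gbp5 held 4.52% (3.49% to 5.82%) and 10.54% (8.18% to 13.5%) there, against 10.61% to 41.0% in Control, so that Cre replicate 2 lay barely below the lowest Control library.

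Across all tested genes, edgeR called 1 gene of 9854 as lower in Cre (0.0101%) and 0 as higher, at a Benjamini-Hochberg adjusted p under 0.05, and 0 of the 8 members were called. The called gene, named after its values were seen, was Trim56, with an adjusted p of 0.00391 and means of 332 ± 83.1 CPM in Control and 3.11 ± 1.47 CPM in Cre. At an unadjusted p under 0.05, 3 members (Gbp5, Gbp8 and Gbp9) were lower, where 10.2% of all tested genes were, and 139 genes of all were higher. DESeq2 called 2 members (Gbp8 and Gbp9) as lower, beside 7.23% of the genes to which it gave an adjusted p, and the authors' deposited table has the same 2 below an FDR of 0.05, beside 3.64% of its genes with an FDR. Both Cre libraries lay below every Control library for 3 members, Gbp5, Gbp8 and Gbp9, against 10.9% of all tested genes and 14.3% of those between 30 and 300 CPM in Control, a range chosen after the values were seen, which holds the Control means of all 8. Without Cre replicate 1 that count was 6, with Gbp2, Gbp6 and Gbp7 added, where 26.5% of all tested genes lay below every Control library. All 8 fitted values were below 0, beside 60.1% of tested genes, but those of Gbp4 and Gbp7 turned above 0 with DESeq2 size factors, which shift the median of all genes by 0.10. The median log2 difference was −1.16 over the members and −0.39 over all tested genes, and that of the members is the same with Gbp8 at its bound. Since these counts come from the difference that was known when the members were named, nothing is read from them.

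**Figure D3:**
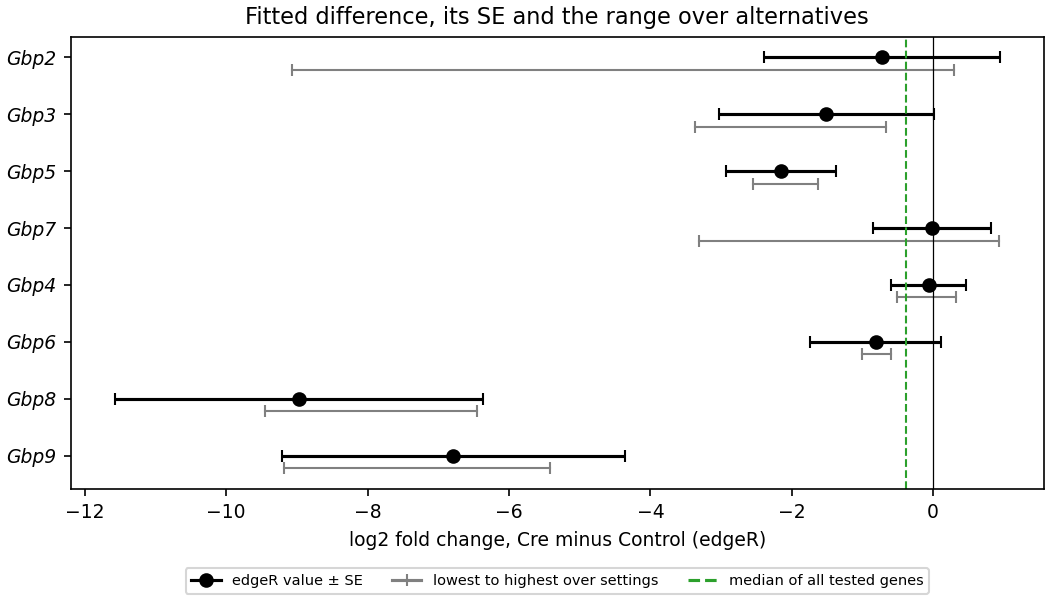
Fitted log2 fold change (Cre minus Control) of each member, with its SE (black) and the lowest to highest value over the alternative settings, each left-out library included (grey); the dashed line is the median of all tested genes. Gbp5, Gbp8 and Gbp9 stay below −1.6 throughout, while Gbp2, Gbp4 and Gbp7 span 0. The value of Gbp8, which had 0 counts in Cre, depends on the prior count of the fit and is no bound. The same holds for the lowest values of Gbp2 and Gbp9, from fits whose single Cre library had 0 counts.

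The authors' deposited table gives log2 fold changes of −5.86 for Gbp8, −5.48 for Gbp9, −1.98 for Gbp5 and −1.37 for Gbp3. The same table has Gbp6 at −0.72, Gbp2 at −0.61, Gbp7 at 0.04 and Gbp4 at 0.02. Gbp4 and Gbp7 thus lie just above 0 there and just below it in edgeR. The values of Gbp8 rest on 0 counts in Cre and cannot be ranked against those of Gbp9. The other 3 family genes were hardly detected. Gbp2b had 0 to 17 counts in Control, Gbp10 0 to 22 and Gbp11 0 to 13, and all 3 had 0 in both Cre libraries.

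Markers of macrophages, which also express GBPs, had lower sums in both Cre libraries than in any Control library. Their 15 genes together gave 38.9 to 6843 CPM in Control versus 19.7 and 8.97 CPM in Cre. Of the 5 tested, edgeR called 0. The highest Control value came from Apoe in replicate 5 (10867 counts), and without Apoe the sums were 38.3 to 248 CPM in Control versus 18.1 and 8.28 CPM in Cre. In every library but Cre replicate 2 most of that remainder was Ccr2, a chemokine receptor gene that activated CD4 T cells also express; without both genes the sums were 13.9 to 54.1 CPM in Control versus 1.04 and 6.90 CPM in Cre. Among single markers, 9 of the 15 were at 0 in both Cre libraries, but most of these were hardly detected in Control. Adgre1 and C1qc were at 0 in every library. Csf1r, Mrc1, C1qb, Fcgr1 and Cd14 each had counts in only 1 Control library, from 1 to 11. Cre replicates 1 and 2 had no count for 25.01% and 33.6% of all tested genes. Lyz2 had 8 to 54 counts in Control versus 0 in Cre. Others did not fall in both Cre libraries: Cd68 had 0 to 15 counts in Control versus 0 and 6 in Cre. Fcgr3 had 0 to 10 counts in Control versus 0 and 3 in Cre. The 12 fibroblast markers together gave 306 to 918 CPM in Control versus 2094 and 87.6 CPM in Cre. In Cre replicate 1, 1748 CPM of this came from the fibronectin gene Fn1, and without it the sums were 219.6 to 828 CPM in Control versus 346 and 60.7 CPM in Cre. The 12 dendritic cell and MHC class II genes gave 259 to 501 CPM versus 162 and 534 CPM, of which Ccr7, which naive T cells also express, gave 153 to 390 CPM versus 107 and 455 CPM. Without Ccr7 the sums were 52.5 to 154 CPM versus 54.9 and 78.6 CPM, and the dendritic markers Flt3, Clec9a and Cd209a were at 0 in every library. For 8 B cell markers the sums were 18.6 to 354 CPM versus 159 and 42.1 CPM, and for 10 NK and CD8 T cell markers 73.6 to 237 CPM versus 57.0 and 75.9 CPM. The part of such cells in the GBP values was not tested.

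The inducer and the signalling chain of the family were measured as well. Ifng, the cytokine itself, had 30, 0, 24, 0 and 43 counts in Control versus 217 and 0 in Cre, so that the Cre libraries lay at and beyond the ends of the Control range. Ifngr1, the ligand-binding receptor chain, stood at 489 ± 218 CPM in Control versus 670 ± 1.20 CPM in Cre. Its partner chain Ifngr2 was low throughout, with 0 to 47 counts in Control versus 6 and 0 in Cre. The kinase Jak1 had 781 ± 238 and 557 ± 68.0 CPM, and Jak2 had 74.8 ± 40.4 and 157 ± 62.9 CPM. Irf1, a transcription factor that acts on GBP genes, stood at 1321 ± 518 and 1186 ± 437 CPM. The feedback inhibitor Socs1 stood at 120 ± 38.0 CPM in Control, with Cre replicates 1 and 2 at 95.9 and 66.2 CPM. None of these 7 genes passed edgeR (adjusted p = 0.500 to 0.943).

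**Figure D4:**
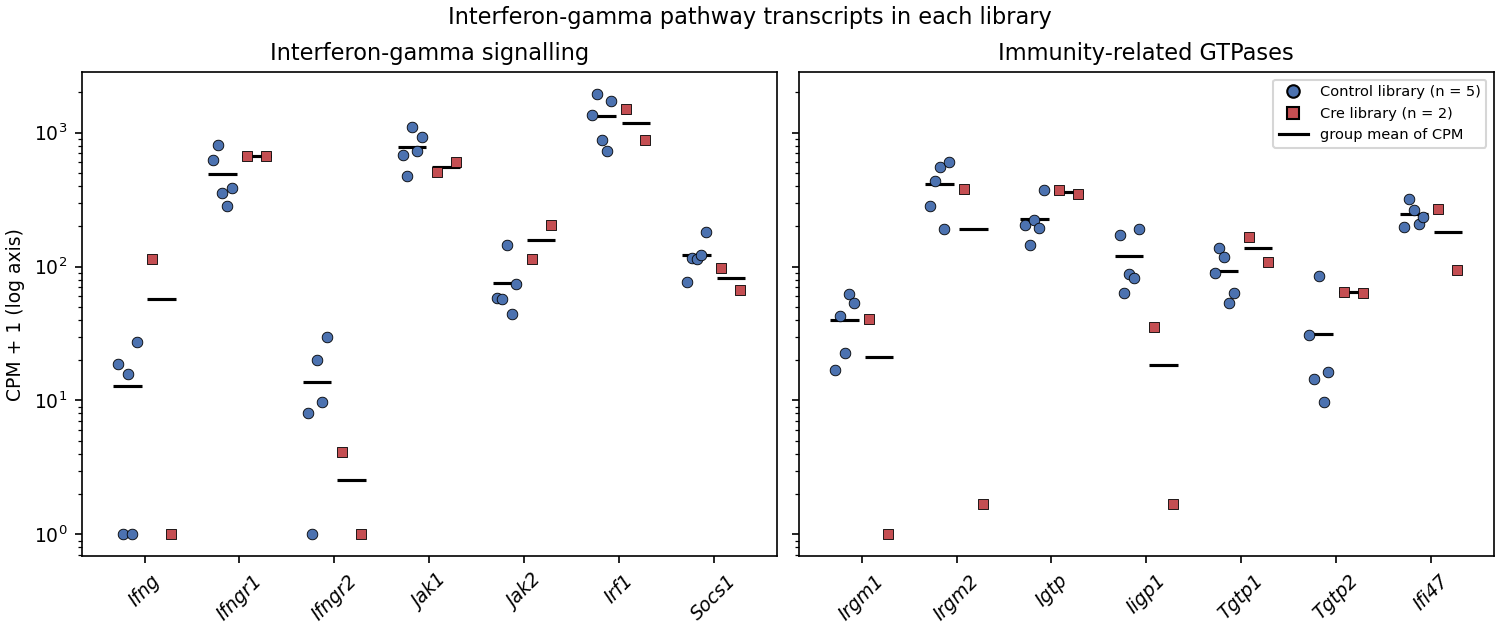
CPM plus 1 on a log axis for interferon-gamma signalling genes (left) and immunity-related GTPases (right), 1 point per library with bars at the group means plus 1. Irf1 stands at 877 CPM or more in both Cre libraries. In Cre replicate 2, Ifng and Ifngr2 (left) and Irgm1, Irgm2 and Iigp1 (right) have 0 or 1 count. Ifi47 at 93.8 CPM there lies below its lowest Control circle (197 CPM). Igtp, Tgtp1 and Tgtp2 stand at 349, 106 and 62.8 CPM in that library.

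Of the 24 genes in the list of interferon-gamma receptor and signal transducers, 22 were tested, 13 with higher and 9 with lower fitted values in Cre, and edgeR called 0 in either direction. At an unadjusted p under 0.05 there were also 0, where 10.2% of all tested genes were lower. The list's median log2 difference was 0.29, against −0.39 over all tested genes. The median over all genes depends on the filter. It was −0.12 under a stricter filter (10 counts in 5 libraries) and −1.32 without a filter on low counts. Irf7 had the smallest p after Jak2 in this list, with 52.4 ± 24.4 CPM in Control versus 120 ± 10.2 CPM in Cre (adjusted p = 0.514). The kinase gene Tyk2, listed with the type I interferon receptor, had 46 to 151 counts in Control versus 0 and 22 in Cre. Its edgeR adjusted p was 0.437. Of the receptor genes, Ifnar2 had 54 to 238 counts in Control versus 250 and 0 in Cre. Ifnar1 had 2 to 30 counts in Control versus 2 and 0 in Cre.

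The immunity-related GTPases are the other large family of interferon-inducible GTPases and work with the GBPs on vacuoles. Of 17 listed genes of this and related groups, 14 were tested, with 6 higher and 8 lower fitted values, and 0 passed edgeR. At an unadjusted p under 0.05, where 10.2% of all tested genes were lower, 0 of the 14 were higher and 1 was lower. That gene was Iigp1, with 288, 93, 142, 139 and 309 counts in Control versus 66 and 1 in Cre (adjusted p = 0.427). Both Cre libraries lay below every Control library for Iigp1, as for 10.9% of all tested genes. Igtp had 226 ± 85.5 CPM in Control versus 361 ± 17.4 CPM in Cre (adjusted p = 0.487). Irgm2, named after its values were seen, had 325 to 983 counts in Control, 729 in Cre replicate 1 and 1 in Cre replicate 2. Gbp2 and Gbp7 also lay below Control in Cre replicate 2 only. In that library 26.5% of all tested genes lay below every Control library. Igtp, Tgtp1 and Tgtp2 did not, at 349, 106 and 62.8 CPM there. Tgtp1 and Tgtp2 are close copies of each other, and their counts may be shared.

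Genes that act on or with GBP proteins gave 0 calls by edgeR. At an unadjusted p under 0.05, 1 of 14 tested prenylation genes was lower. Of 15 tested genes for ATG8 conjugation, 1 was higher and 1 lower at that threshold. Of the 7 tested inflammasome genes and the 2 tested atlastins, 0 passed it. Over all 9854 tested genes 10.2% were lower and 139 genes were higher, so nothing is read from these counts. Of 14 prenylation and CAAX-processing genes, which attach and trim the lipid anchor of some GBPs, 7 had higher and 7 lower fitted values. Rabggtb, the beta subunit of the enzyme that prenylates Rab proteins, had 108 ± 64.4 CPM in Control versus 16.2 ± 11.2 CPM in Cre (adjusted p = 0.408), and Fnta, the alpha subunit shared by the other two prenylating enzymes, had 108 ± 39.2 and 239 ± 17.4 CPM (adjusted p = 0.429). Among 12 inflammasome genes in the file 7 were tested, and 6 of these had lower fitted values, beside 60.1% of all tested genes. The DNA sensor Aim2 had 214 ± 92.7 CPM in Control versus 127 ± 50.6 CPM in Cre, the adaptor Pycard 103 ± 49.8 and 23.8 ± 30.7 CPM, and the pore protein Gsdmd 3 to 134 counts in Control versus 2 and 0 in Cre (adjusted p = 0.429 to 0.631). Of 16 genes for ATG8 conjugation and its partners, which direct GBPs to vacuoles, 15 were tested and 9 had lower fitted values. Map1lc3b, an ATG8 protein, had 185 ± 46.7 CPM in Control versus 351 ± 30.7 CPM in Cre (adjusted p = 0.427), and the ubiquitin ligase Traf6 had 0 to 130 counts in Control versus 0 in both Cre libraries (adjusted p = 0.422). Of the atlastins, membrane GTPases related to the GBPs, 2 were tested, 1 with a higher and 1 with a lower fitted value. The autophagy initiator Becn1 had 206 ± 67.9 and 75.8 ± 73.1 CPM (adjusted p = 0.429). These adjusted p-values are from edgeR; DESeq2 called Traf6 (adjusted p = 0.0210) and Rabggtb (adjusted p = 0.0379).

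The genes whose level followed the summed members most closely over the 7 libraries were named by Pearson correlation of log2(CPM + 1) among 5044 tested genes with at least 30 CPM in Control. They were Zfp65, Etv3, Commd4, Osbpl9 and Aplp2 (r = 0.976 to 0.984, Spearman rho = 0.929 to 0.964). The correlations are a description of a search over many genes with 7 points that share library depth and detection, and without the 2 libraries farthest from the median (Control replicate 3 and Cre replicate 2) they were 0.895 to 0.966. Each of the 5 had its lowest value in Cre replicate 2, where counts were 0 to 5.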

How the data were processed

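The authors deposited raw counts per 3′ region in 7 libraries (116000 regions, 55364 genes) and their own comparison per gene. Per the submitters' processing notes, the tools were HISAT2 2.1.0, FastQC 0.11.8 and DESeq2, on mm10. How reads were counted, with which strand setting, is not given in the sources used here. Per the file headers, the deposited comparison holds DESeq2 p-values and FDR, a fold (ratio of normalized values), its log2 and the GC percent of each gene. Libraries were grouped by title.

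Counts were summed per gene. The contrast of Cre against Control was fitted with edgeR 4.0.16 (R 4.3.3) and its quasi-likelihood test (TMM, robust, filterByExpr defaults, group as the only term), with Benjamini-Hochberg adjustment over 9854 genes and a two-sided threshold of 0.05. CPM is counts scaled to a library total of 1000000. The SE of a fitted log2 difference is its absolute value divided by the square root of the F statistic. Alternatives were other scalings and filters, DESeq2 1.42.0, voom of limma 3.58.1, leaving out single libraries, a block for the replicate number, and leaving out regions that overlap another gene. Marker sums without their leading genes, the bound of Gbp8 without single libraries and the sum of Gbp6 with its copies were added after seeing the data. Positions come from GENCODE M21 on mm10, promoters from RefSeq.

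The members and lists were chosen with earlier results of these data known. Named genes were the members, the other family genes, fixed signalling genes (1 is not reported here), checks, up to 3 per list by smallest p, and the 5 most like the summed members.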

Additional observations from a re-analysis of the deposited data

Results flagged for a closer look

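In 4 of 19 genes examined, 1 Control library stood apart from the other 4 by more than 0.71 of the group's range. For 5 normally distributed values about 1 group in 20 does so by chance. CPM values of low counts need not follow that distribution, so no excess over chance is read from the 4. Gbp3 had 108 CPM in Control replicate 3, with the next library at 27.6 CPM. Gbp5 had 301 CPM in Control replicate 1, with the next at 127 CPM. Gbp8 had 106 CPM in Control replicate 2, with the next at 30.7 CPM, and Gbp10 had 14.8 CPM (22 counts) in the same library, with the next at 3.07 CPM. The libraries that stood apart were thus different for Gbp3 and Gbp5 and the same for Gbp8 and Gbp10.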

How the results depend on the processing

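edgeR called 1 gene in all, as lower. That count was 43 without a filter on low counts (15 higher, 28 lower), 642 with DESeq2 (35 higher, 607 lower), 3 with limma voom (3 higher, 0 lower) and 5 with the replicate number as a block (0 higher, 5 lower), and 1 to 219 when a library was left out, the highest without Cre replicate 1 (17 higher, 202 lower). The cause was not tested. The labels do not say that a number pairs mice, so the replicate block is a check only. In the pathway lists 0 genes were called, 2 with DESeq2 (Traf6 and Rabggtb) and 0 to 2 with a library left out, the 2 (Irgm2 and Iigp1) without Cre replicate 1. Members with both Cre libraries below Control numbered 3, and 3 to 6 with a library left out: 6 without Cre replicate 1, where Gbp2, Gbp6 and Gbp7 were added and 26.5% of all tested genes lay below. Members with fitted values below 0 numbered 8, and 6 to 8 over all settings. The fitted values of Gbp3, Gbp5, Gbp6, Gbp8 and Gbp9 were below 0 in every setting that gave one. Gbp9 had no value under the stricter filter, and Gbp7 had none without overlapping regions. A single Cre library left in a fit is assumed to vary like Control. With 2 Cre libraries of 1929899 and 1449739 counts, members near 1.55 to 2.07 CPM could not be told from 0.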
